A study of Danio rerio with 15 samples.

Results

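The comparison described here sets Müller glia at 36 hours post-lesion (hpl) against Müller glia at 8 hpl. Its members are the 6 arrays, of 15 in the series, that are labelled with these times, 3 biological replicates each. All 6 came from adult zebrafish of the line Tg(gfap:GFP)mi2002, 5 to 6 months old, in which a gfap promoter, active in Müller glia, drives GFP. The retinas had been damaged by light, were dissected and dissociated with enzymes at the stated time, and GFP-positive cells were collected by fluorescence-activated cell sorting. Arrays from unlesioned fish (0 hpl) and from 16 and 24 hpl, again 3 each, are used here only to place the levels at 8 and 36 hpl. The sort keeps any cell that holds enough GFP, and markers of other retinal cells are given at the end.

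Müller glia are the radial glia of the retina. In the intact eye they recycle neurotransmitters, buffer ions and water, and supply neurons with metabolites. In zebrafish, unlike in mammals, they answer the death of photoreceptors by turning on injury and cytokine signals, taking on features of retinal progenitors, re-entering the cell cycle and dividing to give neuronal progenitors. The 2 times compared stand for the first injury response and for a stage at which glia enter division, and the question is what separates them.

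Each value is a log2 expression value made by robust multi-array averaging (RMA), and each change is the 36 hpl mean minus the 8 hpl mean on that scale, with the standard error (SE) of a limma fit. A probe set, the group of array probes for one transcript, was called when its Benjamini-Hochberg adjusted p over 15502 probe sets was under 0.05. Array medians of the 6 lay between 4.41 and 4.59, arrays of one time correlated at 0.973 to 0.988 across probe sets, and arrays of different times at 0.945 to 0.962. The number of arrays limits the precision, and 3 against 3 arrays could not pass a two-sided exact permutation test below 0.1. RMA gives no detection calls, so a fold is printed only where the lower of the 2 means exceeds the usual array median of 4.55. A log2 change that starts below this level is not shown to start above background. Of the Müller glia markers, glula, the glutamine synthetase gene, stood at 11.53, 11.42 and 10.96 at 8 hpl and 10.77, 10.39 and 10.80 at 36 hpl. The retinaldehyde-binding protein gene rlbp1a stood at 10.35, 10.10 and 10.57 at 8 hpl and 9.75, 9.44 and 9.48 at 36 hpl. Not every marker was high: s100b, given below, lay under the usual array median at both times. The series holds no array of GFP-negative cells, so these levels do not show how pure the sort was. No probe set used here carries the name gfap.

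Between 8 and 36 hpl 3235 probe sets were called, 20.9% of those tested. Of these, 1865 rose and 1370 fell, and the larger changes were mostly rises: 762 rises against 406 falls reached 2-fold, and 165 against 28 reached 4-fold. The 3 arrays at 36 hpl lay wholly outside the range of the 3 at 8 hpl for 1806 of the rises and 1262 of the falls, and for 32.0% of all probe sets. The unlesioned mean stood below both times for 947 of the rises and between them for 832. It stood between them for 600 of the falls and above both for 560, and below both for the other 210. The 24 hpl means had covered a median of 64.1% of the change for the rises and 77.4% for the falls.

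The balance of rises and falls moved with the scaling of the arrays. The deposited values gave 57.7% rises and a median change of -0.04 over all probe sets. Scaling on 9 spiked hybridisation controls, whose mean was 11.40 at 8 hpl and 11.21 at 36 hpl, raised every change by the same amount, moved that median to 0.15 and gave 2065 rises and 491 falls, 80.8% rises. The controls of the 2 times overlapped, at 11.16, 11.38 and 11.65 at 8 hpl and 11.24, 11.06 and 11.31 at 36 hpl. The scaling was done array by array, so it also altered the spread between replicates. The falls numbered 904 without 8 hpl replicate 2, 852 without 36 hpl replicate 2 and 840 when the 6 arrays were fitted alone. Changes are given on the deposited scale, and small falls are the values most exposed to this choice.

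**Figure D1:**
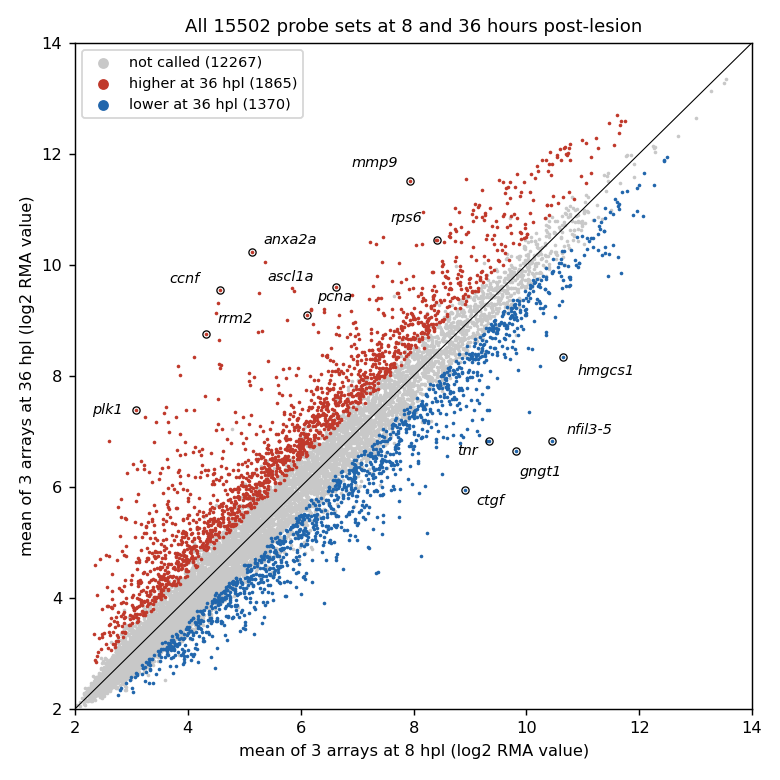
Mean log2 RMA value of each of the 15502 probe sets at 36 hpl (vertical axis) against its mean at 8 hpl (horizontal axis), 3 arrays each. Red points are the 1865 called rises, blue points the 1370 called falls and grey points were not called. Circled genes are named in the text, and the line marks equal values.

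Gene names come from the authors' deposited table of probe sets that changed at least 2-fold against unlesioned glia on these same arrays. The 1830 named genes are therefore a selection: 54.5% were called, as 709 rises (38.7%) and 288 falls (15.7%), with a median change of 0.26. The arrays of the 2 times lay apart for 63.7% of them. The counts for the gene lists below should be read against these shares, and they are not independent evidence of a direction. Of the called probe sets 2170 carry no name used here. A rise or fall in sorted cells can reflect the number of cells of a kind or the RNA per cell, which these bulk samples cannot tell apart.

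**Figure D2:**
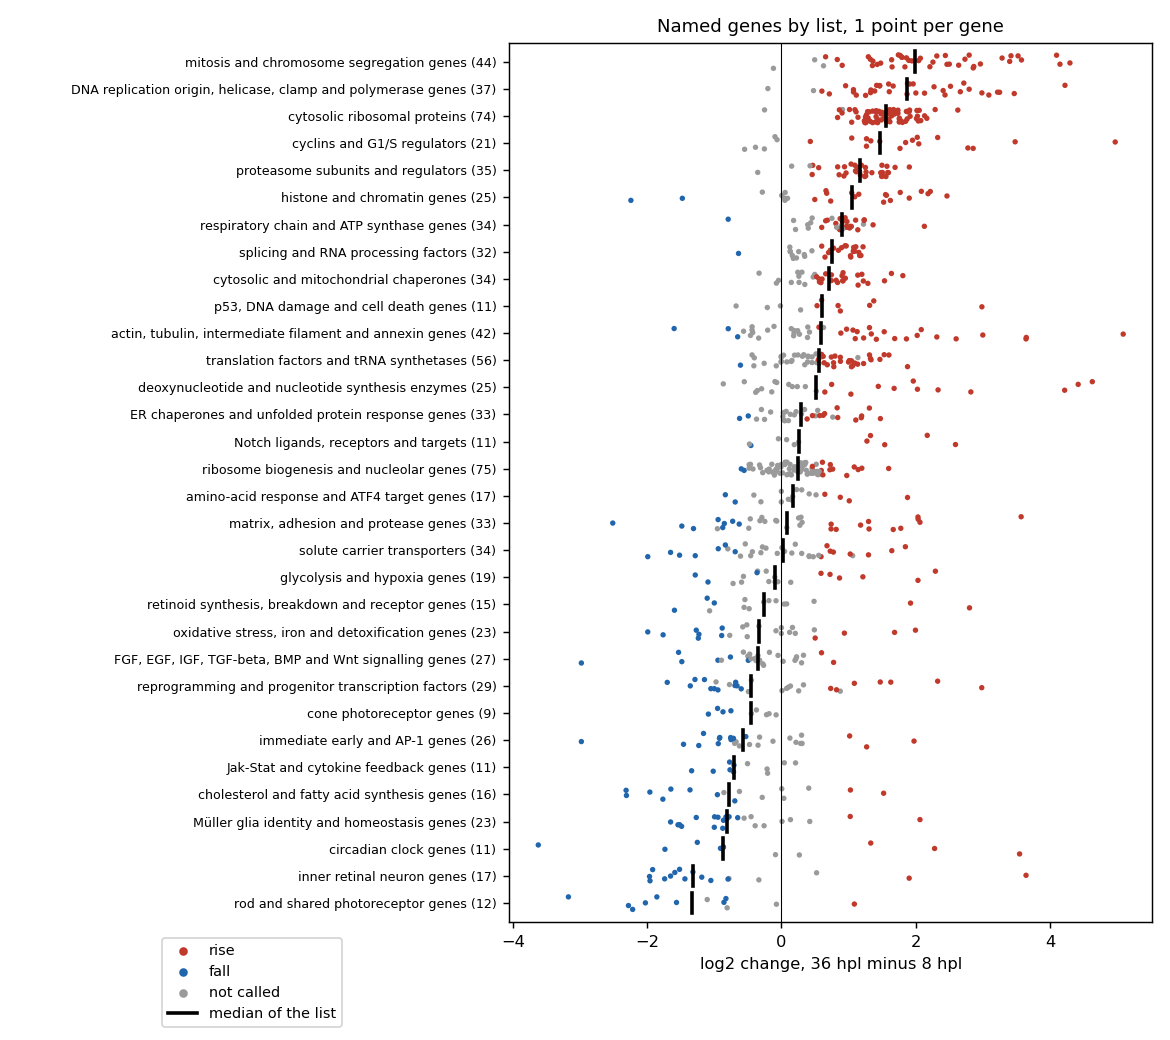
Log2 change from 8 to 36 hpl (horizontal axis) of each named gene, 1 point per gene, in the lists with at least 9 named members (the number in parentheses). Red marks called rises, blue called falls and grey genes that were not called, and the black bar is the median of the list. The medians run from -1.33 for rod and shared photoreceptor genes to 1.99 for mitosis genes.

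Genes of cell division stood among the largest rises. Of 44 named mitosis and chromosome segregation genes 41 rose and none fell, with a median change of 1.99. Of 37 DNA replication genes 35 rose and none fell (median 1.87). The cyclins and G1/S regulators had 16 rises and no fall among 21 members (median 1.46). Deoxynucleotide and nucleotide synthesis enzymes had 12 rises and no fall among 25 (median 0.52), and 13 were not called. A single nucleotide gene fell without 8 hpl replicate 3 or 36 hpl replicate 3. The same count was found with the 6 arrays alone, with the 12 lesioned arrays alone and with array weights. A single cyclin list gene fell without 8 hpl replicate 3 or with array weights.

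Among the replication genes, pcna encodes the sliding clamp that holds DNA polymerase on its template. Its arrays stood at 6.08, 6.14 and 6.10 at 8 hpl and 9.12, 9.30 and 8.85 at 36 hpl (log2 change 2.99 ± 0.14 SE, adjusted p = 2.0e-09, 7.92-fold higher). The groups did not overlap, and the 3 arrays of each time lay close together. The helicase subunit gene mcm5 stood at 3.18, 3.10 and 2.94 at 8 hpl and 6.25, 5.86 and 5.10 at 36 hpl (log2 change 2.66 ± 0.25 SE, adjusted p = 1.32e-06), and mcm2, another subunit of the same ring, changed by 3.09 ± 0.29. The origin recognition gene orc6 changed by 3.47 ± 0.20, cdca7a, a Myc and E2F target in mammals, by 4.22 ± 0.28, and rpa2, a subunit of the single-strand binding protein, by 2.44 ± 0.13. For mcm5, mcm2, orc6 and cdca7a the level at 8 hpl lay below the usual array median, so no fold is given.

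The 12 rises among deoxynucleotide and nucleotide enzymes included both ribonucleotide reductase subunits. The small subunit gene rrm2, which is made in S phase, stood at 4.31, 4.31 and 4.36 at 8 hpl and 9.13, 8.86 and 8.26 at 36 hpl (log2 change 4.42 ± 0.20 SE, adjusted p = 1.60e-09). At 8 hpl its 3 arrays were within 0.1 of each other and below the unlesioned mean of 5.70. The large subunit rrm1 changed by 2.82 ± 0.19 (7.07-fold higher), thymidylate synthase tyms by 4.22 ± 0.21, and dut, which removes dUTP before it can enter DNA, by 4.63 ± 0.27. The nucleoside diphosphate kinase nme2b.1 changed by 2.33 ± 0.15 (5.04-fold higher).

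The cyclin gene ccnf, whose product is part of a ubiquitin ligase active in G2, had the largest change among the 16 rises of its list. Its arrays stood at 4.83, 4.33 and 4.56 at 8 hpl and 9.60, 9.74 and 9.29 at 36 hpl (log2 change 4.97 ± 0.30 SE, adjusted p = 9.87e-09, 31.4-fold higher), and its mean was still 5.35 at 24 hpl. The mitotic kinase cdk1 stood at 5.15, 5.65 and 5.15 at 8 hpl and 8.60, 8.91 and 8.88 at 36 hpl (log2 change 3.48 ± 0.17 SE, adjusted p = 2.0e-09, 11.2-fold higher), and its activating phosphatase cdc25b changed by 2.78 ± 0.16 (6.86-fold higher). The S and G2 cyclin ccna2 changed by 2.86 ± 0.15. For ccnb1, the mitotic cyclin, the probe set may also bind related transcripts, and it changed by 2.05 ± 0.17 (4.13-fold higher). The G1 cyclin ccnd1, which couples growth signals to the cycle, stood at 8.89, 8.93 and 8.68 at 8 hpl and 10.78, 10.98 and 10.29 at 36 hpl (log2 change 1.85 ± 0.17 SE, adjusted p = 1.28e-06, 3.60-fold higher). It was already at 10.55 at 24 hpl.

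Mitosis genes started from values near the floor of the arrays. The kinase gene plk1, which acts at centrosomes and kinetochores, stood at 2.93, 2.97 and 3.33 at 8 hpl and 7.33, 7.51 and 7.28 at 36 hpl (log2 change 4.30 ± 0.18 SE, adjusted p = 1.60e-09). The checkpoint kinase ttk stood at 3.56, 3.45 and 3.19 at 8 hpl and 6.90, 6.66 and 6.84 at 36 hpl (log2 change 3.40 ± 0.15 SE, adjusted p = 1.60e-09), the spindle protein gene tacc3 changed by 4.15 ± 0.19, the chromosomal passenger gene cdca8 by 2.96 ± 0.15, and aurkb, the kinase of the same complex, by 2.47 ± 0.19. The nuclear import adaptor kpna2 changed by 4.10 ± 0.19 and the spindle-associated dlgap5 by 3.58 ± 0.26. In each of these genes the 3 arrays at 36 hpl lay above all 3 at 8 hpl. The gene rtkn2, which is in none of the lists, was among the largest rises with 4.34 ± 0.25.

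Replication and mitosis genes had covered different shares of their change by 24 hpl. The median level of the mitosis genes went from 3.89 at 8 hpl through 3.98 (16 hpl) and 4.12 (24 hpl) to 6.22 at 36 hpl, and its called members had covered a median of 14.4% of their change by 24 hpl. The replication genes had levels of 4.21, 4.93, 5.47 and 6.33 at the same times and had covered 55.1% of their change by 24 hpl. The difference between these shares was not tested. The gene pcna had a mean of 7.69 at 24 hpl against 6.10 at 8 hpl, whereas plk1 was at 3.57 against 3.08.

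**Figure D3:**
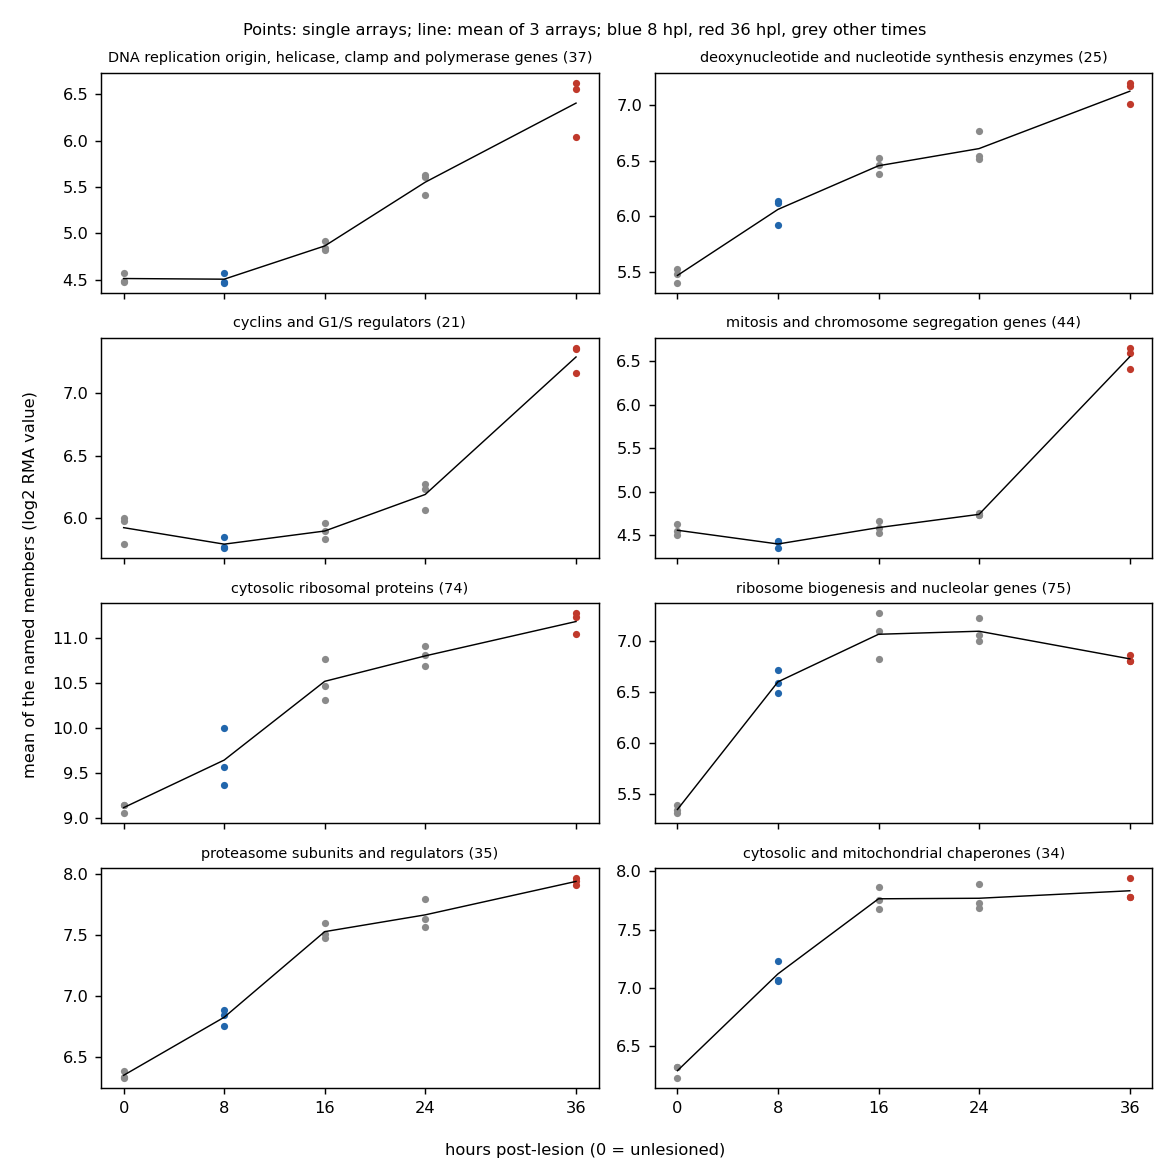
Mean log2 RMA value of the named members of 8 gene lists (vertical axes, which differ in range) against hours post-lesion (horizontal axis), 1 point per array, with a line through the means of 3 arrays. Blue points are the 8 hpl arrays and red points the 36 hpl arrays. The 41 called mitosis genes of 44 rose mainly after 24 hpl, whereas the called chaperone genes had covered a median of 89.4% of their change by 16 hpl.

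Chromatin genes rose more often than not, with 17 rises and 2 falls among 25 (median 1.05). The de novo DNA methyltransferase genes dnmt3ba and dnmt3bb.3 changed by 2.22 ± 0.17 and 1.90 ± 0.18, the histone variant gene h2az2b by 2.08 ± 0.15 (4.24-fold higher) and the DNA-bending protein gene hmgb2 by 2.18 ± 0.21 (4.54-fold higher). The falls included h1-10, a linker histone gene whose mammalian counterpart is made outside S phase. The arrays of h1-10 stood at 9.27, 9.60 and 8.63 at 8 hpl and 6.74, 6.67 and 7.37 at 36 hpl (log2 change -2.24 ± 0.24 SE, adjusted p = 6.05e-06, 4.73-fold lower). All 3 arrays at 36 hpl lay below those of 8 hpl, and the mean was already 6.72 at 16 hpl.

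Cytosolic ribosomal proteins form the machine that makes protein. Of 74 genes for them 72 rose and none fell, with a median of 1.55. The mean over the list was 9.36, 9.57 and 9.999 in 8 hpl replicates 1, 2 and 3, and 11.05 to 11.27 at 36 hpl, so the arrays of the 2 times did not overlap. The spread at 8 hpl moved the median change, which was 1.37 without 8 hpl replicate 1 and 1.79 without 8 hpl replicate 3. The small-subunit gene rps6 stood at 8.45, 8.31 and 8.49 at 8 hpl and 10.49, 10.57 and 10.30 at 36 hpl (log2 change 2.04 ± 0.15 SE, adjusted p = 1.11e-07, 4.11-fold higher), rpsa changed by 2.13 ± 0.14 and rpl27a by 2.17 ± 0.17. The mean of rps6 was 7.37 in unlesioned glia, below all 6 arrays.

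Ribosome biogenesis and nucleolar genes, which build ribosomes from these proteins and ribosomal RNA, had 13 rises and 2 falls among 75 named members. Their median change was 0.24, close to the 0.26 of all named genes, and 60 were not called. The share that rose was below the 38.7% of all named genes. Their median level had gone from 5.34 in unlesioned glia to 6.57 at 8 hpl, and reached 7.08 at 24 and 6.81 at 36 hpl. Among the rises were the snoRNP protein gene imp3 (1.60 ± 0.24), the nucleolar chaperone npm3 (1.14 ± 0.14, 2.21-fold higher) and bop1, which acts in maturation of the large subunit (0.97 ± 0.15, 1.96-fold higher). The count of rises fell to 8 without 36 hpl replicate 2, to 7 without both arrays of lowest weight (8 hpl replicate 3 and 36 hpl replicate 2), and rose to 20 with hybridisation-control scaling. The falls, heatr3 and polr1c, lost their calls when any 1 of the 6 arrays was left out (limma adjusted p between 0.053 and 0.153).

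Of 56 translation factors and tRNA synthetases 27 rose and 1 fell (median 0.56). The fall, eif4e1b, lost its call without 8 hpl replicate 2 or 3 or without 36 hpl replicate 1 or 3 (limma adjusted p between 0.0844 and 0.126), and also with the 6 arrays alone (0.0543), with quantile normalisation applied again (0.0662), without both arrays of lowest weight (0.14) and with hybridisation-control scaling (0.208). The list had 2 falls without 8 hpl replicate 1. Subunits of initiation factor 3, which prepares the small subunit for mRNA, were among the rises: eif3ha changed by 1.60 ± 0.17 (3.03-fold higher), eif3m by 1.47 ± 0.16 (2.76-fold higher) and eif3i by 1.13 ± 0.12 (2.20-fold higher). The gene eif4ebp3l, a binding protein that holds back the cap-binding factor, followed another course. Its arrays stood at 6.94, 7.02 and 6.66 at 8 hpl and 8.75, 8.73 and 8.78 at 36 hpl (log2 change 1.88 ± 0.19 SE, adjusted p = 3.96e-06, 3.68-fold higher), and its unlesioned mean was 8.27, so it rose from below the unlesioned mean at 8 hpl to above it at 36 hpl. Of 32 splicing and RNA processing factors 21 rose and 1 fell (median 0.76), with the spliceosomal Sm protein gene snrpe at 1.15 ± 0.12 (2.22-fold higher).

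The proteasome is the complex that degrades ubiquitin-tagged proteins. Of its 35 named genes 32 rose and none fell (median 1.18). Against unlesioned glia these named genes had a median change of 0.44 at 8 hpl and 1.57 at 36 hpl. Naming genes by their change against unlesioned glia can thus favour rises in this count, and it does not cover unnamed subunits. The core subunit gene psmb1 stood at 7.91, 7.96 and 8.10 at 8 hpl and 9.50, 9.81 and 9.42 at 36 hpl (log2 change 1.58 ± 0.14 SE, adjusted p = 1.25e-06, 3.0-fold higher). Its neighbours psmb4 and psma6a changed by 1.57 ± 0.14 and 1.49 ± 0.14, and psmd1, a subunit of the regulatory cap, by 1.19 ± 0.12. The 8 and 36 hpl arrays of all 4 genes lay apart. Called members had covered a median of 61.8% of their change by 16 hpl.

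Of 34 cytosolic and mitochondrial chaperones 23 rose and none fell (median 0.70), and the called ones had reached 89.4% of their change by 16 hpl. They included the Hsp90 gene hsp90aa1.2 (1.64 ± 0.18, 3.11-fold higher), the cyclophilin gene ppiaa (1.14 ± 0.15, 2.20-fold higher) and the histone co-chaperone dnajc9 (1.81 ± 0.19, 3.50-fold higher). The mitochondrial chaperonin hspd1, known to be needed for fin and heart regeneration in zebrafish, was not called. Its arrays overlapped, at 7.29, 7.61 and 7.05 at 8 hpl and 7.68, 7.76 and 7.29 at 36 hpl (log2 change 0.26 ± 0.18 SE, adjusted p = 0.353), and its unlesioned mean was 6.01. Endoplasmic reticulum chaperones and unfolded protein response genes had 12 rises and 2 falls among 33 (median 0.30, and 0.15 without 8 hpl replicate 3). The share that rose was near the 38.7% of all named genes. No fall was left without 8 hpl replicate 2 or 36 hpl replicate 2, and 1 without 8 hpl replicate 1 or 3 or 36 hpl replicate 3. The rises included the oligosaccharyltransferase subunit genes dad1 (1.31 ± 0.17, 2.48-fold higher) and rpn2 (1.19 ± 0.18, 2.29-fold higher).

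Respiratory chain and ATP synthase genes had 22 rises and 1 fall among 34 (median 0.90). The rises numbered 16 with the 6 arrays alone or without 8 hpl replicate 1. They numbered 17 without 8 hpl replicate 2 or without 36 hpl replicate 2 or 3, and 29 with hybridisation-control scaling. The mean over the list was 7.22, 7.59 and 7.94 at 8 hpl and 8.17, 8.51 and 8.56 at 36 hpl. The cytochrome c oxidase subunit gene cox5ab stood at 6.66, 6.60 and 6.60 at 8 hpl and 8.76, 8.87 and 8.62 at 36 hpl (log2 change 2.13 ± 0.14 SE, adjusted p = 3.68e-08, 4.37-fold higher), and its groups lay far apart. The complex I genes ndufa4a and ndufab1b changed by 1.10 ± 0.15 and 1.01 ± 0.15. The fall was in cox4i2, an isoform linked in mammals to low oxygen, at 9.96, 9.60 and 9.39 at 8 hpl and 8.90, 8.83 and 8.85 at 36 hpl (log2 change -0.79 ± 0.18 SE, adjusted p = 0.00411, 1.73-fold lower). That call was lost with hybridisation-control scaling (limma adjusted p = 0.135).

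Several genes of the first injury response were lower at 36 hpl. Of 26 immediate early and AP-1 genes 11 fell and 3 rose (median -0.58), and 7 fell with hybridisation-control scaling. The list did not peak at 8 hpl as a set. Its mean was 7.27, 7.24 and 6.90 at 8 hpl, 7.37, 7.31 and 7.20 at 16 hpl and 6.79, 6.65 and 6.81 at 36 hpl. The median change of its members against unlesioned glia was 0.52 at 8 hpl and 0.71 at 36 hpl. The matricellular growth factor gene ctgf fell most of the list. Its arrays stood at 9.33, 8.89 and 8.53 at 8 hpl and 5.42, 5.52 and 6.88 at 36 hpl (log2 change -2.98 ± 0.42 SE, adjusted p = 9.42e-05, 7.90-fold lower), against 3.80, 3.35 and 4.58 in unlesioned glia. All 3 arrays at 36 hpl lay below the 8 hpl arrays and above the unlesioned ones, and the mean had been highest at 16 hpl (10.23). The AP-1 subunit gene fosl2 stood at 9.52, 9.59 and 9.16 at 8 hpl and 8.72, 8.43 and 8.36 at 36 hpl (log2 change -0.92 ± 0.15 SE, adjusted p = 0.000389, 1.90-fold lower). Another 2 probe sets of fosl2 changed by -0.40 and -0.44 and were not called. The zinc finger gene klf6a, which is linked in zebrafish to axon growth, changed by -1.16 ± 0.17 (2.24-fold lower).

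The stress factor gene atf3, a known marker of injured cells, stood at 7.05, 7.46 and 7.32 at 8 hpl and 6.82, 6.54 and 6.20 at 36 hpl (log2 change -0.76 ± 0.26 SE, adjusted p = 0.0465, 1.69-fold lower). Its call was lost when any 1 of 4 arrays was left out (8 hpl replicates 2 and 3, 36 hpl replicates 2 and 3, limma adjusted p between 0.0975 and 0.168). It was also lost with hybridisation-control scaling (0.151), with the replicate block (0.0623) and without both arrays of lowest weight (0.172). The rises were gadd45ga, a stress and differentiation gene, at 7.70, 7.84 and 6.75 at 8 hpl and 9.41, 9.55 and 9.25 at 36 hpl (log2 change 1.97 ± 0.33 SE, adjusted p = 0.000431, 3.93-fold higher), the MAP kinase phosphatase dusp1 (1.27 ± 0.22, 2.41-fold higher) and ier5l. The other 12 members of the list were not called. For ier5l (1.02 ± 0.30) the call was lost without 8 hpl replicate 1 or 3 or without 36 hpl replicate 1 or 2 (limma adjusted p between 0.0526 and 0.0977), with array weights (0.0534) and without both arrays of lowest weight (0.21).

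Jak-Stat signalling relays cytokines to the nucleus and is known to be needed for Müller glia to divide in the injured zebrafish retina. Of its 11 named genes none rose and 6 fell (median -0.71), but 3 fell without 8 hpl replicate 2 and 1 with hybridisation-control scaling. The feedback inhibitor socs3b stood at 10.67, 10.80 and 10.27 at 8 hpl and 9.88, 9.76 and 9.96 at 36 hpl (log2 change -0.71 ± 0.24 SE, adjusted p = 0.0477, 1.64-fold lower), against an unlesioned mean of 5.45, so both times were far above the unlesioned level. The call for socs3b was lost without any 1 of 8 hpl replicates 1 and 2 and 36 hpl replicates 1, 2 and 3 (limma adjusted p between 0.0744 and 0.165), with quantile normalisation applied again (0.0522), without both arrays of lowest weight (0.087) and with hybridisation-control scaling (0.256). The transcription factor gene stat3 overlapped, at 7.07, 7.27 and 5.98 at 8 hpl and 6.10, 5.96 and 5.96 at 36 hpl (log2 change -0.77 ± 0.24 SE, adjusted p = 0.0338), and lost its call without any 1 of the same 5 arrays (limma adjusted p between 0.0619 and 0.173), with the 6 arrays alone (0.134) and with hybridisation-control scaling (0.257); without 8 hpl replicate 3 its change was -1.16.

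The paralogue socs3a was not called, with overlapping arrays at 10.72, 10.95 and 10.42 at 8 hpl and 11.15, 10.93 and 10.64 at 36 hpl (log2 change 0.21 ± 0.24 SE, adjusted p = 0.617). The NF-kappaB inhibitor gene nfkbiaa, itself a target of that pathway, stood at 6.91, 6.68 and 7.13 at 8 hpl and 5.72, 4.94 and 6.05 at 36 hpl (log2 change -1.34 ± 0.22 SE, adjusted p = 0.000431, 2.53-fold lower), and its mean at 36 hpl was close to the unlesioned 5.87. The kinase gene jak1 changed by -0.71 ± 0.15 and the interferon factor irf9 by -0.77 ± 0.19, calls that hybridisation-control scaling ended (limma adjusted p = 0.0564 and 0.117), and that of jak1 was also lost without both arrays of lowest weight (0.0621). Of 5 Myc family genes 2 fell: mych stood at 7.62, 7.51 and 7.16 at 8 hpl and 6.61, 6.46 and 6.17 at 36 hpl (log2 change -1.01 ± 0.26 SE, adjusted p = 0.0112, 2.02-fold lower) against an unlesioned mean of 3.97, and mycla changed by -0.78 ± 0.18. The mych call was lost with hybridisation-control scaling (limma adjusted p = 0.0638) and that of mycla without both arrays of lowest weight (0.0788).

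The largest fall among genes whose arrays lay apart was in nfil3-5, which encodes a bZIP repressor related to the clock output factor NFIL3. Its arrays stood at 10.75, 10.29 and 10.30 at 8 hpl and 6.84, 6.87 and 6.77 at 36 hpl (log2 change -3.62 ± 0.30 SE, adjusted p = 3.99e-07, 12.3-fold lower). The unlesioned mean was 7.43 and the 16 hpl mean 6.66, and the 3 arrays at 8 hpl lay above every array of the other 4 times. Of 11 named clock genes 6 fell and 3 rose (median -0.86, and -0.56 without 8 hpl replicate 1). The rises were of clock repressors that had been low at 8 hpl. The arrays of ciarta stood at 4.73, 5.51 and 5.48 at 8 hpl and 8.73, 8.88 and 8.75 at 36 hpl (log2 change 3.55 ± 0.29 SE, adjusted p = 3.44e-07, 11.7-fold higher), with an unlesioned mean of 8.27. All 3 arrays at 8 hpl lay below those of every other time. The E-box repressor bhlhe41 stood at 6.81, 7.02 and 6.84 at 8 hpl and 8.73, 9.10 and 9.69 at 36 hpl (log2 change 2.28 ± 0.29 SE, adjusted p = 4.11e-05, 4.86-fold higher), with 9.11 before the lesion, and the nuclear receptor nr1d2b changed by 1.33 ± 0.24. The other nr1d2b probe set changed by 0.35 and was not called.

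Among the falls of the clock list were the melatonin synthesis enzyme gene aanat2 (-1.25 ± 0.22, 2.38-fold lower) and the nuclear receptor rorcb (-1.74 ± 0.20). Called members of the list had covered a median of 96.7% of their change by 16 hpl. The hour of day at which tissue was taken is not given in the sources used here, so time after the lesion and time of day cannot be told apart for these genes. Outside the list, 2 further genes with large falls also had their highest mean at 8 hpl: the actin-binding xirp1 stood at 8.17, 8.14 and 8.39 at 8 hpl and 5.02, 5.64 and 4.85 at 36 hpl (log2 change -3.06 ± 0.29 SE, adjusted p = 1.84e-06, 8.34-fold lower) with 6.13 before the lesion, and ypel3, linked in mammals to growth arrest, at 10.53, 10.17 and 10.04 at 8 hpl and 8.14, 8.40 and 7.99 at 36 hpl (log2 change -2.07 ± 0.28 SE, adjusted p = 6.82e-05, 4.20-fold lower) with 9.18.

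**Figure D4:**
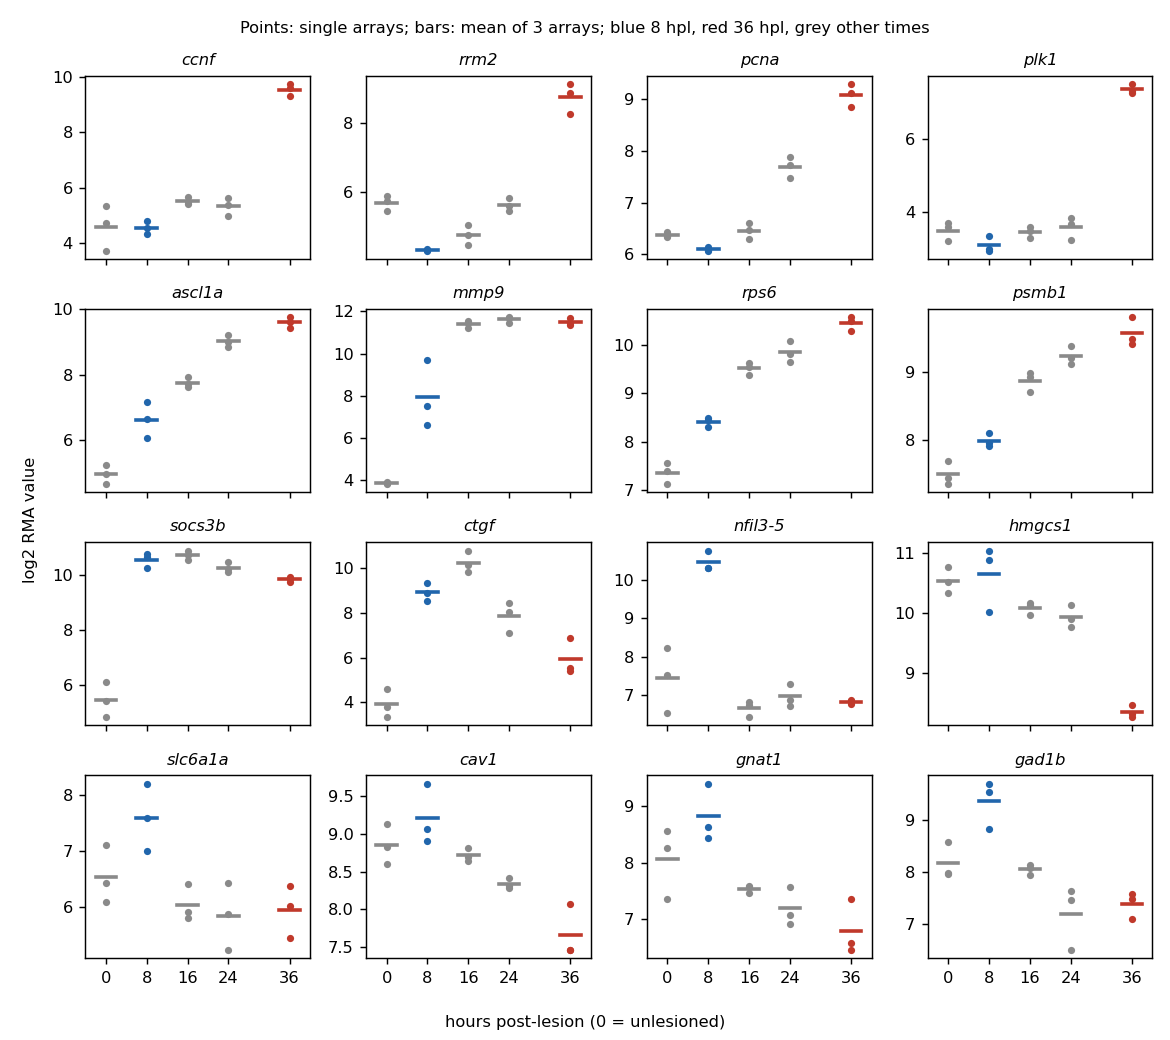
Log2 RMA value of 16 genes named in the text (vertical axes, which differ in range) against hours post-lesion (horizontal axis), 1 point per array, with a bar at the mean of 3 arrays. Blue marks 8 hpl, red 36 hpl and grey the other times. The gene plk1 stayed near its 8 hpl level to 24 hpl, ascl1a climbed at each time, and nfil3-5 was highest at 8 hpl.

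Genes that mark progenitors moved in both directions. Of 29 named reprogramming and progenitor transcription factor genes 7 rose and 11 fell (median -0.45, and -0.25 without 8 hpl replicate 1), with 6 falls without 36 hpl replicate 2 and 5 with hybridisation-control scaling. The proneural factor ascl1a, which zebrafish Müller glia need to re-enter the cycle, stood at 6.64, 7.16 and 6.06 at 8 hpl and 9.76, 9.61 and 9.44 at 36 hpl (log2 change 2.98 ± 0.22 SE, adjusted p = 1.28e-07, 7.91-fold higher). Its level was 4.93 before the lesion and 9.02 at 24 hpl, so it was above the unlesioned level at 8 hpl and higher at each later time. The RNA-binding lin28ab, of the family that acts downstream of Ascl1a in fish, stood at 4.20, 4.40 and 4.67 at 8 hpl and 6.07, 5.95 and 6.13 at 36 hpl (log2 change 1.63 ± 0.30 SE, adjusted p = 0.000864), having been at 5.99 at 16 hpl. The developmental factors zic2b and sox11b changed by 2.33 ± 0.21 (5.02-fold higher) and 1.47 ± 0.19 (2.77-fold higher).

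The falls of this list included genes of patterning and of the glial state. The SoxB1 factor sox2, held by Müller glia and progenitors alike, stood at 10.19, 10.07 and 9.84 at 8 hpl and 9.44, 9.34 and 9.28 at 36 hpl (log2 change -0.68 ± 0.14 SE, adjusted p = 0.00213, 1.60-fold lower). Its unlesioned mean was 8.98, below all 6 arrays, and the call was lost with hybridisation-control scaling (limma adjusted p = 0.162). The homeobox gene meis2b changed by -1.70 ± 0.33, the nuclear receptor nr2f2 by -1.36 ± 0.28 (2.56-fold lower), the T-box gene tbx3b by -1.15 ± 0.19 (2.21-fold lower) and id4, an inhibitor of bHLH factors, by -1.29 ± 0.16.

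Notch signalling keeps retinal progenitors from differentiating. Of 11 named genes 5 rose and 1 fell, a share of rises near the 38.7% of all named genes. Their median change of 0.26 was that of all named genes too. The ligand gene dld stood at 4.66, 3.94 and 3.77 at 8 hpl and 7.03, 6.60 and 6.51 at 36 hpl (log2 change 2.59 ± 0.23 SE, adjusted p = 8.56e-07), and the ligand gene dlc changed by 1.54 ± 0.11. The list member her9 stood at 5.54, 4.98 and 4.83 at 8 hpl and 7.99, 7.21 and 6.66 at 36 hpl (log2 change 2.17 ± 0.28 SE, adjusted p = 4.12e-05, 4.51-fold higher). Whether Notch signalling had a part in the change of her9 was not tested. For both ligands the 8 hpl level lay below the usual array median, and both means were lower at 8 hpl than before the lesion (5.27 and 3.45). The probe set of her4.2 may bind related her4 copies, and it changed by 1.33 ± 0.18. The fall was in the fringe glycosyltransferase lfng (-0.46 ± 0.14). That call was lost without 8 hpl replicates 1 or 2 or 36 hpl replicates 2 or 3 (limma adjusted p between 0.071 and 0.122), without both arrays of lowest weight (0.0753), with the 6 arrays alone (0.116) and with hybridisation-control scaling (0.526).

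Of 27 FGF, EGF, IGF, TGF-beta, BMP and Wnt signalling genes 2 rose and 6 fell, and 19 were not called; 3 fell with hybridisation-control scaling. The FGF feedback inhibitor spry4 stood at 9.86, 10.43 and 9.81 at 8 hpl and 8.50, 8.47 and 8.52 at 36 hpl (log2 change -1.53 ± 0.27 SE, adjusted p = 0.000609, 2.89-fold lower), with 8.75 before the lesion. Its 36 hpl arrays lay below those of 8 hpl and within the unlesioned range. The TGF-beta-induced matrix gene tgfbi changed by -1.48 ± 0.15, to a level below the usual array median. The 2 rises were of the receptor gene erbb2 (0.78 ± 0.19, 1.71-fold higher) and the hedgehog effector gene gli2a (0.60 ± 0.13, 1.51-fold higher). The erbb2 call was lost without both arrays of lowest weight (limma adjusted p = 0.128).

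Among 33 matrix, adhesion and protease genes 12 rose and 8 fell, with 5 falls without 36 hpl replicate 1 or 2, with the 6 arrays alone and with hybridisation-control scaling. The share that rose was near the 38.7% of all named genes. The gelatinase gene mmp9 stood at 9.69, 7.52 and 6.58 at 8 hpl and 11.71, 11.35 and 11.45 at 36 hpl (log2 change 3.57 ± 0.49 SE, adjusted p = 6.91e-05, 11.9-fold higher), against 3.81, 3.91 and 3.87 before the lesion. Its 8 hpl arrays were spread over more than 3 units, with replicate 1 highest, and all 3 lay between the unlesioned and the 36 hpl arrays. Its inhibitor gene timp2a changed by 2.06 ± 0.18 and the proteoglycan dcn by 2.04 ± 0.25, both from levels below the usual array median. The collagen prolyl hydroxylase p4ha1b, which is also in the hypoxia list, stood at 4.73, 4.53 and 4.59 at 8 hpl and 6.46, 6.43 and 7.05 at 36 hpl (log2 change 2.03 ± 0.28 SE, adjusted p = 8.60e-05, 4.09-fold higher).

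Tenascin-R, encoded by tnr, is a matrix protein of the nervous system, and its gene fell most of the matrix list, from 9.47, 9.67 and 8.88 at 8 hpl to 7.09, 6.31 and 7.08 at 36 hpl (log2 change -2.51 ± 0.30 SE, adjusted p = 1.69e-05, 5.71-fold lower). It had been 9.48 before the lesion, and all 3 arrays at 36 hpl lay below those of 8 hpl. The cartilage-type collagen col9a2 changed by -1.31 ± 0.29 (2.48-fold lower) and col15a1b by -0.85 ± 0.15 (1.80-fold lower). The cell-surface glycoprotein gene anos1b, which is in none of the lists, stood at 4.73, 5.64 and 5.43 at 8 hpl and 9.32, 9.68 and 9.47 at 36 hpl (log2 change 4.22 ± 0.24 SE, adjusted p = 8.50e-09, 18.7-fold higher).

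Of 42 named genes of the cytoskeleton 21 rose and 3 fell (median 0.59), where 38.7% of all named genes rose and 15.7% fell. The falls numbered 5 without 8 hpl replicate 3 or without 36 hpl replicate 3. The annexin gene anxa2a, whose product links membranes to actin, was the largest rise of a named gene, at 5.32, 4.91 and 5.19 at 8 hpl and 9.67, 10.67 and 10.37 at 36 hpl (log2 change 5.09 ± 0.42 SE, adjusted p = 3.89e-07, 34.1-fold higher). It had a mean of 7.86 at 16 hpl and 4.07 before the lesion. The actin-monomer binding thymosin gene tmsb changed by 3.65 ± 0.21 (12.5-fold higher), the tubulin tubb5 by 3.64 ± 0.20 (12.5-fold higher) and tuba5 by 2.31 ± 0.13 (4.97-fold higher). The probe set of tuba1b may bind other alpha-tubulins, and it changed by 3.0 ± 0.17. The fall was largest in the microvillar protein gene vil1, at 6.79, 7.13 and 6.99 at 8 hpl and 5.49, 5.38 and 5.24 at 36 hpl (log2 change -1.60 ± 0.20 SE, adjusted p = 3.81e-05, 3.03-fold lower).

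Among named genes of the resting glial cell more fell than rose. Glial genes that kept their unlesioned level carry no name here. The median change of the named ones against unlesioned glia was -0.38 at 8 hpl and -1.19 at 36 hpl, so the naming can favour falls in this count. Of 23 named Müller glia identity and homeostasis genes 14 fell and 2 rose (median -0.81), and the mean over the list ran from 8.15 to 8.47 at 8 hpl and 7.72 to 7.88 at 36 hpl. With hybridisation-control scaling 9 fell. Rod and inner neuron genes were lower on the same arrays, with median changes of -1.33 and -1.32, and their part in the glial falls was not tested. The glutathione transferase gstp1.2 stood at 11.36, 11.58 and 11.44 at 8 hpl and 10.03, 10.25 and 10.29 at 36 hpl (log2 change -1.27 ± 0.14 SE, adjusted p = 9.18e-06, 2.41-fold lower). The caveola protein gene cav1 stood at 9.66, 8.90 and 9.06 at 8 hpl and 7.47, 7.46 and 8.07 at 36 hpl (log2 change -1.54 ± 0.20 SE, adjusted p = 5.27e-05, 2.91-fold lower), the sodium pump subunit atp1a1b changed by -1.0 ± 0.13 (2.0-fold lower) and gja1b, the connexin 43 gene, by -0.81 ± 0.13 (1.76-fold lower). Arrays of the 2 times lay apart for all 4 genes.

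The classical markers glula and rlbp1a, whose arrays are given above, changed by -0.65 ± 0.15 and -0.78 ± 0.17. Both calls were lost with hybridisation-control scaling (limma adjusted p = 0.199 and 0.0502), that of glula also with the 6 arrays alone (0.0595) and that of rlbp1a without both arrays of lowest weight (0.0609). The calcium-binding s100b was not called, at 3.74, 4.30 and 4.09 at 8 hpl and 3.66, 3.79 and 3.32 at 36 hpl (log2 change -0.45 ± 0.27 SE, adjusted p = 0.289), and at both times it lay below the usual array median, against an unlesioned mean of 6.57. Of the 2 rises, slc38a4, an amino acid transporter, stood at 8.32, 9.05 and 9.21 at 8 hpl and 9.78, 9.62 and 10.24 at 36 hpl (log2 change 1.02 ± 0.24 SE, adjusted p = 0.00648, 2.03-fold higher) against 10.95 before the lesion, and the other was timp2a.

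Sterol and fatty acid synthesis genes form the membrane lipids of the cell. Of 16 named members 8 fell and 2 rose (median -0.78). The cholesterol pathway entry enzyme hmgcs1 stood at 10.02, 10.88 and 11.04 at 8 hpl and 8.45, 8.30 and 8.26 at 36 hpl (log2 change -2.31 ± 0.21 SE, adjusted p = 1.35e-06, 4.96-fold lower). It was close to its unlesioned mean of 10.53 at 8 hpl and still at 9.92 at 24 hpl. The sterol demethylases cyp51 and msmo1 changed by -2.31 ± 0.29 (4.97-fold lower) and -1.96 ± 0.23 (3.89-fold lower), the isoprenoid synthase fdps by -1.65 ± 0.22 (3.13-fold lower) and aclya, which supplies cytosolic acetyl-CoA, by -1.36 ± 0.17 (2.57-fold lower). The rises were of npc1, which exports cholesterol from lysosomes (1.03 ± 0.18, 2.04-fold higher), and of lbr (1.52 ± 0.26, 2.87-fold higher), a sterol reductase that is also a protein of the nuclear envelope.

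Of 15 retinoid genes 2 rose and 3 fell, and 5 fell without 8 hpl replicate 3 or without 36 hpl replicate 3. The vitamin A desaturase cyp27c1, which makes the red-shifted chromophore precursor in zebrafish pigment epithelium, stood at 5.46, 5.91 and 4.15 at 8 hpl and 7.90, 7.86 and 8.16 at 36 hpl (log2 change 2.80 ± 0.31 SE, adjusted p = 9.72e-06, 6.97-fold higher), against 2.86 before the lesion. The retinoic acid binding protein gene crabp2a stood at 5.69, 5.55 and 5.50 at 8 hpl and 7.96, 7.78 and 6.77 at 36 hpl (log2 change 1.92 ± 0.34 SE, adjusted p = 0.000753, 3.79-fold higher) and rose only after its 24 hpl mean of 5.32. The dehydrogenase dhrs13a.1 changed by -1.59 ± 0.22 (3.02-fold lower).

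Of 19 glycolysis and hypoxia genes 6 rose and 3 fell (median -0.10). Rises were a smaller share than the 38.7% of all named genes, and falls were near the 15.7%. Among sugar metabolism genes, the fall of tpi1b and the rise of pgd lost their calls with the 6 arrays alone (limma adjusted p = 0.131 and 0.122). Both also lost them with array weights (0.0683 and 0.102) and without 8 hpl replicate 1 (0.096 and 0.174) or 36 hpl replicate 1 (0.0796 and 0.093). The rise of pgm1 lost its call without 8 hpl replicate 1 (0.0575) or 36 hpl replicate 3 (0.0612). The oxygen sensor egln3, a prolyl hydroxylase of HIF and itself a hypoxia target, stood at 7.83, 7.85 and 7.53 at 8 hpl and 9.96, 9.91 and 10.21 at 36 hpl (log2 change 2.29 ± 0.28 SE, adjusted p = 2.09e-05, 4.90-fold higher), and its unlesioned mean was 10.30, so it was low at 8 hpl and back near the unlesioned level at 36 hpl. The HIF subunit epas1b changed by -1.09 ± 0.25 (2.14-fold lower) and the glycolytic pgam1a by 1.21 ± 0.14 (2.32-fold higher). Among 23 oxidative stress, iron and detoxification genes 7 fell and 4 rose. The iron exporter slc40a1 (ferroportin) stood at 9.09, 9.49 and 9.08 at 8 hpl and 7.38, 6.78 and 7.53 at 36 hpl (log2 change -1.99 ± 0.22 SE, adjusted p = 9.98e-06, 3.98-fold lower), and the mitochondrial carrier ucp2 at 6.37, 7.04 and 5.72 at 8 hpl and 8.46, 8.80 and 7.87 at 36 hpl (log2 change 2.0 ± 0.30 SE, adjusted p = 0.000162, 3.99-fold higher).

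Markers of retinal neurons fell over the same interval in the sorted cells. Of 12 named rod and shared photoreceptor genes 8 fell and 1 rose (median -1.33), and the mean over the list ran from 6.72 to 7.71 at 8 hpl and 5.62 to 6.29 at 36 hpl. Among photoreceptor genes, pde6a and pdca lost their calls with hybridisation-control scaling (limma adjusted p = 0.111 and 0.125) and with the 6 arrays alone (0.0639 and 0.0676). They also lost them without replicate 2 of 8 hpl (0.111 and 0.139) or of 36 hpl (0.0842 and 0.125). The gnb3b call was lost without any 1 array at 8 hpl (0.0557 to 0.0879) and without 36 hpl replicate 1 (0.115) or 2 (0.126). It was also lost with hybridisation-control scaling (0.143), with the replicate block (0.0506) and without both arrays of lowest weight (0.167). In contrast rcvrn2, not called here, gained a call under some alternatives, such as array weights (0.0137). The rod transducin subunit gngt1 stood at 9.35, 10.27 and 9.83 at 8 hpl and 6.39, 6.11 and 7.42 at 36 hpl (log2 change -3.17 ± 0.42 SE, adjusted p = 5.10e-05, 9.02-fold lower) and its partner gnat1 at 8.64, 9.39 and 8.43 at 8 hpl and 6.58, 6.45 and 7.35 at 36 hpl (log2 change -2.03 ± 0.31 SE, adjusted p = 0.000203, 4.08-fold lower). In both genes replicate 2 was highest at 8 hpl and lowest at 36 hpl, replicate 3 was highest at 36 hpl, and the times did not overlap. The retinal guanylate cyclase gucy2f changed by -2.28 ± 0.29 (4.85-fold lower), and rbp3, which carries retinoids between cells, by -2.22 ± 0.34.

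The rise in that list was nr2e3, a nuclear receptor of the rod lineage, at 5.45, 4.54 and 4.83 at 8 hpl and 5.90, 5.98 and 6.20 at 36 hpl (log2 change 1.09 ± 0.25 SE, adjusted p = 0.00526, 2.12-fold higher). Of 9 cone genes 4 fell and none rose (median -0.45, -0.71 without 8 hpl replicate 3 and -0.90 without 36 hpl replicate 3), with 2 falls without 8 hpl replicate 2 or without 36 hpl replicate 2 and 1 with hybridisation-control scaling. The cone transducin gnat2 stood at 7.67, 7.62 and 7.02 at 8 hpl and 5.98, 6.35 and 6.71 at 36 hpl (log2 change -1.09 ± 0.24 SE, adjusted p = 0.00402, 2.13-fold lower), while the other gnat2 probe set changed by -0.35 and was not called. The mean over the cone list ran from 5.21 to 5.55 at 8 hpl and 4.56 to 5.21 at 36 hpl, so its arrays touched.

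Of 17 inner retinal neuron genes 12 fell and 2 rose (median -1.32), and the mean over the list ran from 6.75 to 7.61 at 8 hpl and 6.18 to 6.72 at 36 hpl, with 8 hpl replicate 3 the lowest of its time and 36 hpl replicate 3 the highest. Among neuronal falls, gria2b, scg2a, rbfox1 and vsx1 lost their calls with the 6 arrays alone (limma adjusted p between 0.062 and 0.104). They also lost them without 36 hpl replicate 1 (0.0596 to 0.17) or replicate 2 (0.0902 to 0.117). The GABA synthesis enzyme gad1b stood at 9.53, 9.69 and 8.82 at 8 hpl and 7.09, 7.48 and 7.57 at 36 hpl (log2 change -1.97 ± 0.28 SE, adjusted p = 9.85e-05, 3.91-fold lower) and gad2 at 8.49, 7.40 and 6.48 at 8 hpl and 5.06, 5.42 and 6.01 at 36 hpl (log2 change -1.96 ± 0.42 SE, adjusted p = 0.00333, 3.89-fold lower). The GABA transporter slc6a1a stood at 8.20, 7.59 and 6.99 at 8 hpl and 5.44, 6.03 and 6.37 at 36 hpl (log2 change -1.65 ± 0.35 SE, adjusted p = 0.00308, 3.14-fold lower), and the synuclein sncgb changed by -1.92 ± 0.30 (3.78-fold lower). The pan-neuronal elavl3 was not called and overlapped, at 6.30, 4.68 and 4.25 at 8 hpl and 4.32, 3.86 and 4.70 at 36 hpl. The 2 rises were tubb5, which is also in the cytoskeleton list, and the calcium pump gene atp2b1a (1.90 ± 0.16, 3.74-fold higher), and neither is confined to neurons.

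At 8 hpl the inner neuron list had stood above its unlesioned level, with a median over genes of 6.88 against 6.10. Its list means ran from 6.75 to 7.61 at 8 hpl and from 6.60 to 6.70 before the lesion. The rod list had a median of 6.88 against 6.71, but its arrays overlapped, at 6.72 to 7.71 against 6.43 to 7.28. The cone list was lower, at a median of 5.55 against 6.41. The neuronal lists were lower at 36 hpl alongside the clock genes and the early response genes too, and their part in those falls was not tested either. The remaining marker lists were small. The 2 named leukocyte genes and the 1 named pigment epithelium gene were not called, 2 of 2 red cell and 2 of 2 lens genes fell (1 call in each pair being lost under some alternatives), 1 endothelial or mural gene of 3 rose and 2 fell, and 1 of 4 oligodendrocyte genes fell. The red cell globin gene hbae3 lost its call without 8 hpl replicate 2 (limma adjusted p = 0.0609), without 36 hpl replicate 2 (0.0644) and without both arrays of lowest weight (0.157). The crystallin gene cryaba lost its call with hybridisation-control scaling (0.158), with the 6 arrays alone (0.0548) and without both arrays of lowest weight (0.0762). The lens pair had median levels of 4.03 at 8 hpl and 3.19 at 36 hpl, both below the usual array median. The endothelial receptor gene kdrl stood at 7.01, 6.87 and 5.98 at 8 hpl and 4.67, 4.02 and 5.54 at 36 hpl (log2 change -1.88 ± 0.34 SE, adjusted p = 0.000862, 3.67-fold lower). No probe set used here carries the name of a defining leukocyte gene, so that cell type could not be followed through such a gene. The 2 named genes of its list had a median level of 7.40 before the lesion, 8.86 at 8 hpl and 8.97 at 36 hpl. Whether leukocytes had a part in these levels was not tested.

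**Figure D5:**
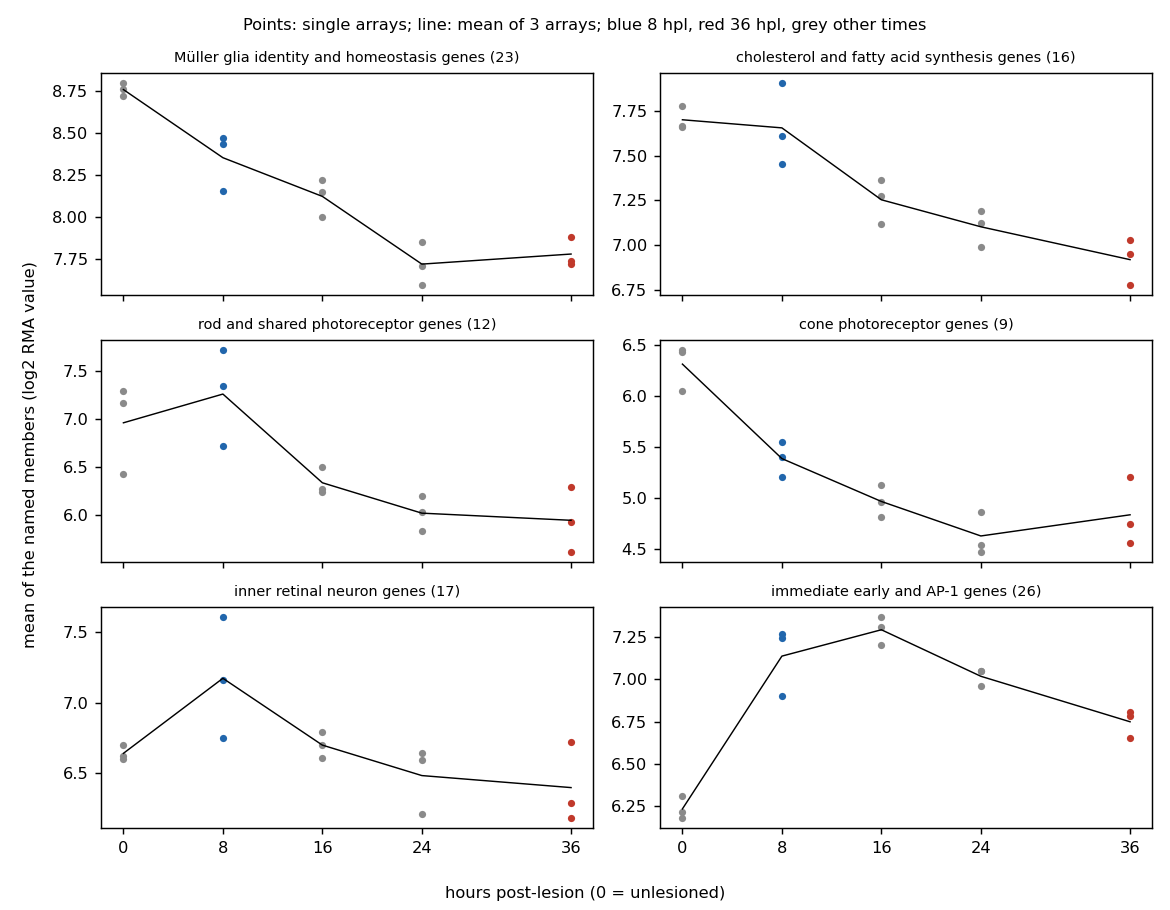
Mean log2 RMA value of the named members of 6 gene lists (vertical axes, which differ in range) against hours post-lesion (horizontal axis), 1 point per array, with a line through the means of 3 arrays. Blue points are the 8 hpl arrays and red points the 36 hpl arrays. The Müller glia, lipid, rod, inner neuron and immediate early lists lay lower at 36 hpl on every array than on any array at 8 hpl, while 1 array of each time touched in the cone list.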

How the data were processed

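Gene expression was measured on Affymetrix zebrafish arrays, 15 in all, 3 at each of 5 times. Per the labels' protocols, total RNA was amplified and biotin-labelled before hybridisation. The deposited values are log2 expression values made by RMA, per the submitters' processing notes. Which implementation and version was used is not given in the sources. RMA corrects background, quantile-normalises arrays and sums up probes, so differences in total RNA between samples are removed. Arrays carry no read depth, and their number limits the precision.

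From these values, 15502 probe sets (115 control probe sets left out of 15617) were fitted by lmFit and eBayes of limma (version 3.58.1, under R 4.3.3), with 1 coefficient per time over all 15 arrays, and the 36 hpl minus 8 hpl contrast was tested with Benjamini-Hochberg adjustment. All adjusted p-values are from such fits. The labels call the 3 arrays of a time biological replicates. The code was tested on simulated data. Symbols came from the authors' table, which lists 3164 probe sets: 2511 had 1 symbol, 108 several and 545 none. Of the 2511, 976 were updated through RefSeq synonyms, 1007 were current and 528 were kept. Where a gene had several probe sets, the one of highest mean stood for it, and clone or locus names were left out.

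The members and lists were chosen with earlier results of these data known. Genes named are the 14 largest rises and falls with arrays apart, the 5 called members of smallest adjusted p per list and direction, the markers of other cell types, and a panel of regeneration and division genes. No probe set used carries the panel names myca, insm1a, her4, olig2, pax6a, pax6b or gfap. Some genes that this rule selects are not reported here. No promoter, protein or probe sequences were used. Alternatives were other scalings, samples, weights, filters, thresholds and each array left out.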

Additional observations from a re-analysis of the deposited data

How the results depend on the processing

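Signs were compared only for the 259 probe sets of named genes that were followed through the alternatives. None of the called ones among them changed sign. Medians near 0 did: that of the hypoxia list went from -0.10 to 0.09 with hybridisation-control scaling, of the matrix list from 0.08 to -0.01 without 36 hpl replicate 1, and of the solute carriers from 0.03 to between -0.13 and -0.01 under 6 alternatives. Calls numbered 1915 at an adjusted p under 0.01 and 1168 with at least 2-fold change, of which 762 were rises. Falls numbered 491 with hybridisation-control scaling, 840 with the 6 arrays alone, 660 at an adjusted p under 0.01, 406 with at least 2-fold change, and 852 to 1376 with 1 array left out. Normalising by quantiles again gave 1748 rises and 1647 falls, and centring on medians gave 1741 and 1605. With hybridisation-control scaling, which adds the same amount to every change, the median change was 0.44 for nucleolar genes, 0.75 for translation factors, 0.89 for chaperones, 0.49 for endoplasmic reticulum genes, 0.36 for amino-acid response genes, 1.37 for the proteasome, 1.66 for cyclins, 2.19 for mitosis, 0.79 for p53 and cell death genes, 0.78 for the cytoskeleton and -0.14 for oxidative stress genes. The endoplasmic reticulum median was 0.19 with array weights, and without both arrays of lowest weight, an alternative chosen after seeing the data, it was 0.15 and the p53 median 0.47. Leaving out the dimmest 25% of probe sets gave 1.62 for cyclins and -0.48 for clock genes, in each case over fewer members, and averaging all probe sets of a gene gave 0.86 for the cytoskeleton. With 1 array left out, medians ran from 0.15 to 0.40 for endoplasmic reticulum genes, 1.33 to 1.78 for cyclins, -0.89 to -0.56 for clock genes, -0.47 to -0.21 for oxidative stress genes and 0.47 to 0.74 for p53 genes. Beyond these constructions the cause was not tested. Of these 259 probe sets, 38 lost their call with hybridisation-control scaling, 22 with the 6 arrays alone and 15 to 26 with 1 array left out. The 259 include probe sets that were not called, such as those of hspd1 and socs3a, so the share of calls lost is higher than these counts over 259. Same-numbered arrays of 8 and 36 hpl had deviations that correlated at 0.22, -0.24 and -0.04. So few values cannot show whether arrays of one number share a batch, and the labels give no batch. A replicate block gave 3095 calls, 1817 rises and 1278 falls. Levels near the floor limit what can be said of genes that start below the array median.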

Other observations

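Complement and chemokine genes had few named members. Of 7, 2 rose and 2 fell, and 1 rose without any 1 of the 6 arrays other than 8 hpl replicate 1. The kininogen gene kng1, whose product is a precursor of kinins, stood at 7.05, 6.89 and 6.09 at 8 hpl and 8.89, 9.21 and 9.19 at 36 hpl (log2 change 2.42 ± 0.23 SE, adjusted p = 2.04e-06, 5.35-fold higher), with 4.49 before the lesion. The terminal complement gene c6.2 stood at 8.28, 8.38 and 6.56 at 8 hpl and 6.35, 5.24 and 5.64 at 36 hpl (log2 change -2.0 ± 0.42 SE, adjusted p = 0.00283, 4.01-fold lower), with 3.37 before the lesion. Both were above their unlesioned levels at 8 hpl, and the 2 genes then moved in opposite directions. The chemokine gene cxcl12b changed by -1.38 ± 0.22 (2.61-fold lower).

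Solute carriers had 8 rises and 7 falls among 34 named members. The transporter genes slc6a17, whose product carries neutral amino acids into vesicles, and slc39a7, which releases zinc from the secretory pathway, changed by 1.85 ± 0.28 (3.60-fold higher) and 1.64 ± 0.17 (3.12-fold higher), and the second GABA transporter slc6a1b by -1.52 ± 0.34 (2.86-fold lower), whose other probe set changed by -0.93 and was not called. Of 17 amino-acid response and ATF4 target genes 4 rose and 2 fell, with no fall without 8 hpl replicate 2 and 1 without 8 hpl replicate 3 or any 1 array at 36 hpl. Of 11 p53, DNA damage and cell death genes 7 rose and none fell, with 4 rises with the 6 arrays alone or without 8 hpl replicate 3, 36 hpl replicate 1 or 36 hpl replicate 2, and 3 without both arrays of lowest weight; 1 fell without 36 hpl replicate 3. They included pcna, which is also a replication gene, the checkpoint kinase gene chek2 (1.31 ± 0.17) and phlda2 (1.38 ± 0.18, 2.59-fold higher). Among the largest falls outside the lists, stxbp6l, related to a syntaxin-binding protein, stood at 8.03, 8.09 and 8.29 at 8 hpl and 4.60, 5.14 and 4.50 at 36 hpl (log2 change -3.39 ± 0.20 SE, adjusted p = 9.87e-09, 10.5-fold lower), and had been at 8.76 before the lesion.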
